A study of Mus musculus with 6 samples.

Results

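The miR-183, miR-96 and miR-182 cluster is a group of 3 miRNA hairpins that lie side by side on mouse chromosome 6. Its members were chosen by name, as the 5 mature strands mmu-miR-183-5p, mmu-miR-183-3p, mmu-miR-96-5p, mmu-miR-182-5p and mmu-miR-182-3p (mmu, for mouse, is left out from here on). All 5 were among the 1546 mature miRNAs measured, and miR-96-3p, the remaining strand of the 3 hairpins, was measured as well. The study compared livers from male C57BL/6 mice on a normal diet (NC, n = 3) with livers from C57BL/6 mice in which a high-fat diet served as the model of metabolic dysfunction-associated fatty liver disease (MAFLD, n = 3). The mice were 8 weeks old at the start and were on the diet for 16 weeks. The groups differed in the diet, no transgene is named for either, and both were killed after fasting. The growth and treatment protocols attached to the samples describe HepG2, a human liver cancer line given free fatty acids, whereas the tissue, the group and the organism of every sample are mouse liver, and the libraries were taken as mouse liver on that ground and on the methods. The methods describe 6 mice per diet, of which the labels give 3 libraries per diet, and no pooling of livers is mentioned. The question was which miRNAs differ in level between the livers of MAFLD mice and those of control mice.

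The 3 hairpins are made from a shared precursor transcript and are best known from sense organs such as the retina and the inner ear, where they are abundant. In liver cells the cluster is known as a target of SREBP2, the transcription factor that is active when sterol is low and switches on cholesterol synthesis. MiR-96-5p and miR-182-5p are in turn known to repress Fbxw7 and Insig2, whose products restrain SREBP, so that the cluster belongs to a circuit of sterol control. A miRNA finds its target mRNAs mainly through its seed, bases 2 to 8 of the mature strand.

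The 5p strands carried nearly all reads of the cluster, and their sequences are shown because their seeds are nearly alike. They are printed 5′ to 3′ from RefSeq (GRCm38.p6), with the seed in capitals, and they lie on the minus strand at chr6:30169711-30169732 (miR-183-5p), chr6:30169506-30169528 (miR-96-5p) and chr6:30165962-30165986 (miR-182-5p). MiR-1271-5p, at chr13:54578152-54578173 on the plus strand, is printed beside them because it has the seed of miR-96-5p.
miR-183-5p: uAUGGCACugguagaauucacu
miR-96-5p: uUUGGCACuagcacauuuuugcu
miR-182-5p: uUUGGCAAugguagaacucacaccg
miR-1271-5p: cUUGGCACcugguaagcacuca

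The seeds of miR-183-5p and miR-96-5p were alike in 6 of 7 bases, with the substitution A2U, counted from 1 at the 5′ end and with the base of the strand named earlier given before the position. The seeds of miR-96-5p and miR-182-5p were also alike in 6 of 7 bases, with C8A. MiR-183-5p and miR-182-5p differed in 2 seed bases, A2U and C8A, but they were the most alike pair over the whole strand, with 18 of 22 bases the same from the 5′ end. MiR-96-5p shared 13 of 22 bases with miR-183-5p and 12 of 23 with miR-182-5p. Among 1679 mature miRNAs with a sequence, 0 others had the seed of miR-183-5p or of miR-182-5p, and 1 other, miR-1271-5p, had that of miR-96-5p. MiR-1271-5p was scarce in all 6 livers, from 0 to 1.27 CPM (counts per 1000000 reads on all listed miRNAs), so miR-96-5p held most of the reads with this seed.

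The hairpins are Mir183 (ENSMUSG00000065619.2, 70 nt, chr6:30169668-30169737), Mir96 (ENSMUSG00000065586.1, 106 nt, chr6:30169446-30169551) and Mir182 (ENSMUSG00000076361.1, 75 nt, chr6:30165918-30165992), all on the minus strand of GRCm38. The gap between Mir183 and Mir96 was 116 nt, and that between Mir96 and Mir182 was 3453 nt. No other GENCODE M21 gene overlaps them. RefSeq places all 3 within the span of the long non-coding RNA gene Mirc35hg (chr6:30158640-30174125, minus strand). Whether they lie in its exons or introns was not examined here.

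**Figure D1:**
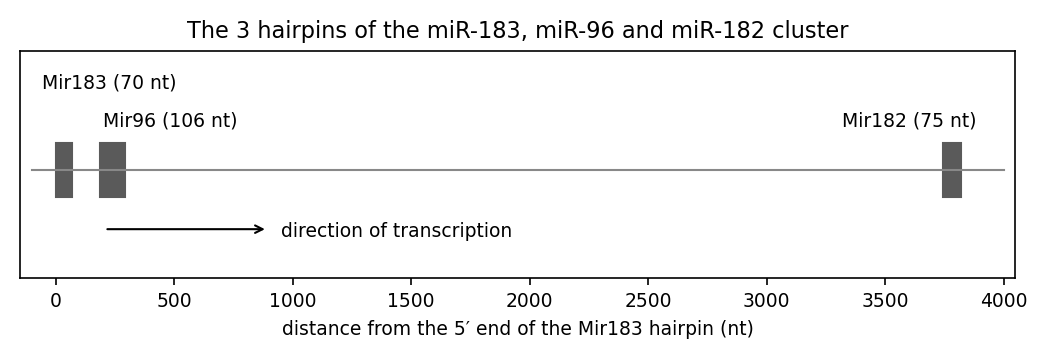
Map of the 3 hairpins, drawn to scale in nt from the 5′ end of Mir183 in the direction of transcription; boxes are hairpins. Mir183 and Mir96 are 116 nt apart, and Mir182 follows after a gap of 3453 nt.

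The libraries held between 1336935 and 4685712 reads on miRNAs, and a level of 3 reads, used as the floor of detection, was 0.640 to 2.24 CPM. The hepatocyte miRNA miR-122-5p was at 42159 to 85150 CPM in the 6 libraries. MiR-148a-3p took from 46.8% to 71.4% of the reads, and a CPM value of any other miRNA moves with that share. The 9 markers of neuronal and sensory cells summed to 1689, 2367 and 2206 CPM in the NC livers. In the MAFLD livers they summed to 2822, 1524 and 2485 CPM, so the full list set no library apart. MiR-7a-5p made up most of these sums, at 1208, 1579 and 2150 CPM in NC livers and 2769, 1474 and 2410 CPM in MAFLD livers. It was left out after its values were seen, because it was abundant in all livers. NC replicates 1 and 2 stood apart in the 8 other markers. These summed to 480 and 788 CPM there and to between 49.3 and 74.9 CPM in the other 4 libraries. Of the 8 markers, 7 were higher in both than in any other library. Brain-rich miR-9-5p alone was at 344 and 530 CPM there and at 4.48 to 12.4 CPM elsewhere. The least abundant of the markers was miR-211-5p, with 1 library above 0 (0.637 CPM).

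The cluster was a minor part of the liver miRNAs and no difference in its level between the diets was detected. Its 5 members together were read 417, 780 and 601 times in the NC livers, which is 164, 497 and 449.5 CPM, and 713, 1541 and 455 times in the MAFLD livers, which is 267, 329 and 296.5 CPM. The group means of this sum were 370.0 ± 180.4 CPM (SD, n = 3) for NC and 298 ± 30.7 CPM (SD, n = 3) for MAFLD. All 3 MAFLD livers lay between the lowest NC liver, replicate 1, and the other two NC livers. In a whole liver, the number of cells that hold the cluster and its level per cell cannot be told apart.

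MiR-182-5p, which is known to repress Foxo transcription factors, was the most abundant member. It was at 103, 291 and 284 CPM in the NC livers (263, 457 and 380 reads) and at 153, 205 and 182 CPM in the MAFLD livers (408, 961 and 280 reads). NC replicate 1 was the lowest of the 6 libraries, the other two NC livers were the highest, and the groups overlapped. On the log2(CPM + 1) scale MAFLD differed from NC by −0.19 (SE 0.43, limma with Benjamini-Hochberg adjustment over all 501 miRNAs tested, adjusted p = 0.834), with a 95% interval from −1.11 to 0.73, that is from 0.462-fold to 1.66-fold. The sign turned without NC replicate 2 (0.062) or without NC replicate 3 (0.045). Its mean of 203 CPM over the 6 libraries was at rank 72 of the listed miRNAs.

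MiR-183-5p, the member nearest to the 5′ end of the cluster, was at 39.6, 149.7 and 97.2 CPM in the NC livers (101, 235 and 130 reads). In the MAFLD livers it was at 73.2, 65.5 and 63.2 CPM (195, 307 and 97 reads). The 3 MAFLD livers were close together and all lay inside the range of the NC livers, which spanned 3.78-fold. The log2 fold change of −0.31 had a standard error of 0.48 (limma, adjusted p = 0.754) and a 95% interval from −1.32 to 0.70, or from 0.400-fold to 1.63-fold. Without NC replicate 2 it was 0.11.

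MiR-96-5p, whose seed is known for mutations that cause hearing loss in mice and people, was at 20.4, 54.8 and 68.1 CPM in the NC livers (52, 86 and 91 reads). In the MAFLD livers it was at 41.3, 58.3 and 50.8 CPM (110, 273 and 78 reads). Again NC replicate 1 was the lowest and all MAFLD livers lay within the NC range. For this strand limma gave a log2 fold change of 0.22 with a standard error of 0.48 (adjusted p = 0.831) and a 95% interval from −0.81 to 1.25, or from 0.569-fold to 2.38-fold, and it was −0.23 with median-ratio scaling, so its direction depended on the scaling. Without NC replicate 1 it was −0.29.

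**Figure D2:**
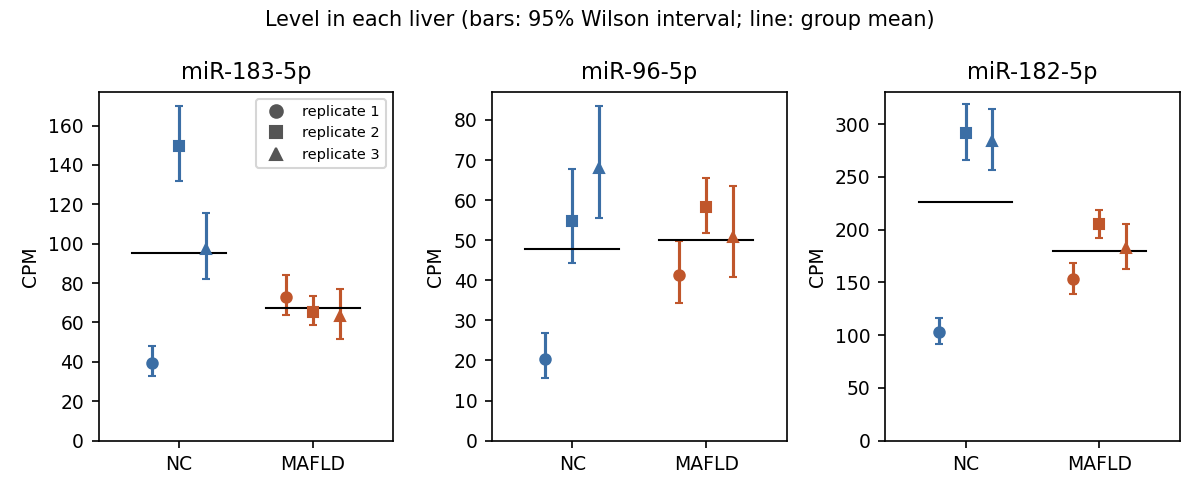
CPM (vertical axis, from 0) of the 3 tested members in each liver of the NC and MAFLD groups; points are livers, bars are 95% Wilson intervals of the read count, and lines are group means of 3 livers. For each member the 3 MAFLD livers lie within the range of the NC livers, of which replicate 1 is the lowest.

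The 3p strands were at the limit of detection. MiR-183-3p was read 2 times, both in NC replicate 2 (1.27 CPM), and miR-182-3p was read 1 time, in NC replicate 1 (0.392 CPM). In the other libraries both stood at 0 reads, which allows up to 0.640 to 2.24 CPM at 3 reads. MiR-96-3p was read 3 times, 1 time each in NC replicates 1 and 3 and in MAFLD replicate 1. Their mean levels were under 1 CPM, so they were not compared between the diets. Summed over the 6 libraries, the 5p strand made up 99.8% of the reads of miR-183 (95% Wilson interval 99.3% to 99.9%), 99.6% of those of miR-96 (98.7% to 99.9%) and 99.96% of those of miR-182 (99.8% to 99.99%). Such one-sided use of a hairpin was not unusual. Of 123 hairpins with at least 200 reads on their 5p and 3p strands, 36 kept at least as large a share on the major strand as miR-96 did, and the median was 97.9%.

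Of the 5 members, 3 averaged 1 CPM or more and were tested. At an adjusted p under 0.05 from limma 0 of the 3 passed, where 0.2% of all tested miRNAs passed, and at an unadjusted p under 0.05 also 0 of 3 passed, where 18% of all did. Those 90 miRNAs were 67 higher and 23 lower on the CPM scale, and with median-ratio scaling 81 passed, 36 higher and 45 lower. Groups without overlap were seen for 0 of these 3 strands, against 19.4% of all tested miRNAs. With edgeR on the recovered reads 1 of 3, miR-183-5p, had an unadjusted p under 0.05 (log2 fold change −0.92, unadjusted p = 0.0487, adjusted p = 0.281), where 17.4% of all miRNAs did. With DESeq2 it was again 1 of 3, miR-183-5p (log2 fold change −0.95, unadjusted p = 0.0325, adjusted p = 0.220), where 16.6% did. By neither count tool did a member pass the adjusted p, which 0.2% of all miRNAs passed with edgeR and 5.61% with DESeq2.

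The tools scale the libraries in different ways, and all miRNAs shifted with the scaling. Their median log2 fold change, over the 501 tested, was 0.43 on the CPM scale and 0.044 with median-ratio scaling, which sets each library to the middle of its miRNAs. Relative to that CPM median, the log2 difference was −0.74 for miR-183-5p, −0.62 for miR-182-5p and −0.21 for miR-96-5p. A lower log2 fold change than that of miR-183-5p was found in 17.4% of the tested miRNAs, than that of miR-182-5p in 21.4% and than that of miR-96-5p in 39.3%.

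With median-ratio scaling, miR-183-5p stood at 62.6, 193 and 77.6 scaled CPM in the NC livers and at 56.7, 68.0 and 48.4 in the MAFLD livers. On this scale limma gave a log2 fold change of −0.77 (SE 0.38, unadjusted p = 0.0681, adjusted p = 0.305), and MAFLD replicate 2 still lay above NC replicate 1. MiR-182-5p stood at 163, 375 and 227 scaled CPM in the NC livers and at 119, 213 and 139.6 in the MAFLD livers, which is a change of −0.66 in log2 (SE 0.32, unadjusted p = 0.0654, adjusted p = 0.304 from limma). The groups overlapped here too, and the intervals of both changes reached above 0, to 0.067 and 0.049. NC replicate 1, the lowest library in CPM, was no longer the lowest of the 6 for any of the 3 members. Its CPM values were raised by the largest factor of the 6 libraries.

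When miR-148a-3p was taken out of the total, the summed cluster was at 571, 1356 and 873 CPM in the NC group and 502, 760.3 and 613 CPM in the MAFLD group. NC replicate 2 was then well above the other libraries, and NC replicate 1 fell within the range of the MAFLD livers. Of the 22 settings that were run, CPM included, miR-183-5p and miR-182-5p were below the median of all miRNAs in all 22 and miR-96-5p in 20. These settings reuse the same 6 libraries. Those without the filter, the trend or moderation and with the replicate block have the log2 fold changes and the median of the CPM fit, so they add nothing to this tally. By definition as many miRNAs lie below the median as above it. How many other miRNAs stayed below it in all settings was not counted.

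**Figure D3:**
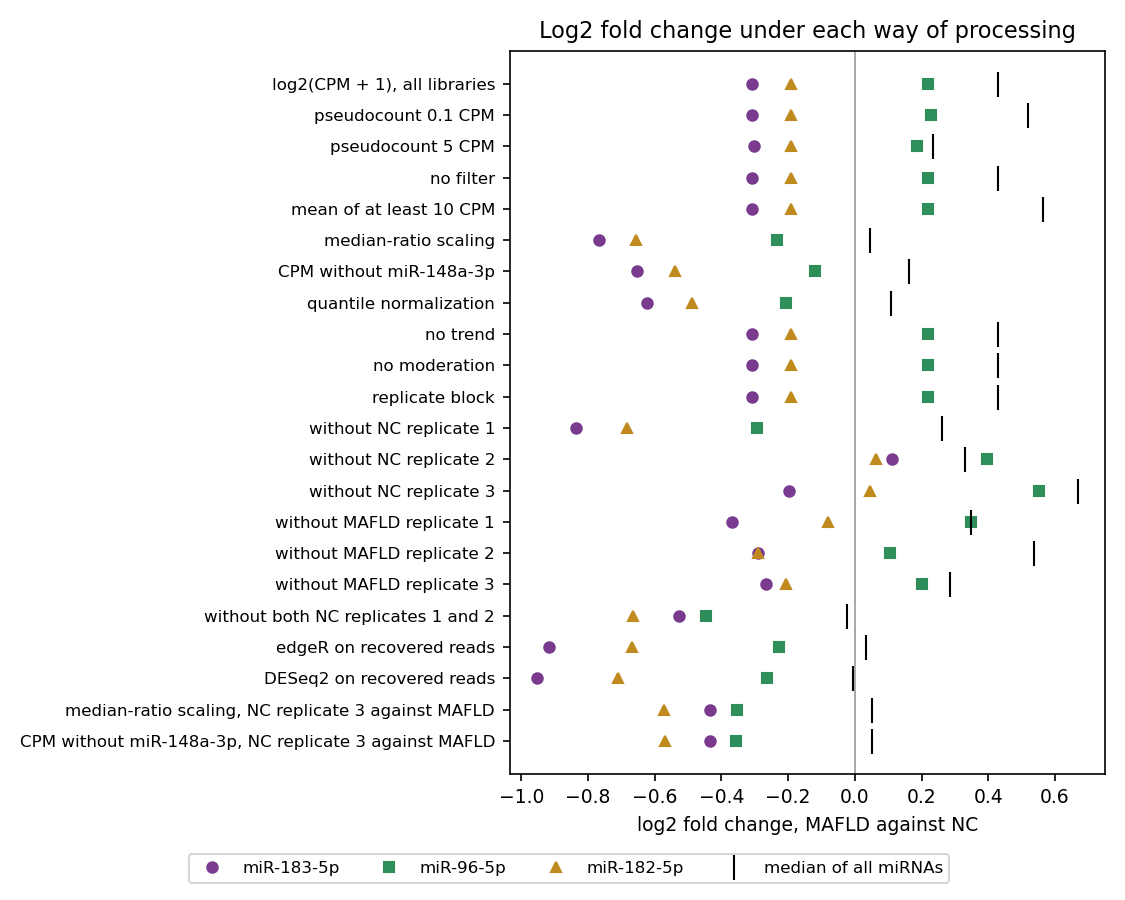
Log2 fold change of the 3 tested members (coloured symbols) and the median of all miRNAs (black ticks), MAFLD against NC, in each setting (rows). On the CPM scale the members lie between −0.31 and 0.22 and the median of all at 0.43, and with median-ratio scaling the members lie between −0.77 and −0.23 and the median at 0.044.

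NC replicate 2 had 788 CPM of the 8 neuronal markers and 497 CPM of the cluster. NC replicate 1 had 480 CPM of the markers with the lowest cluster level in CPM (164 CPM). NC replicate 3 had 56.1 CPM of the markers with 449.5 CPM of the cluster. The place of NC replicate 1 depended on the scaling. With miR-148a-3p taken out of the total its cluster level was 571 CPM, above the 502 CPM of MAFLD replicate 1. Without NC replicates 1 and 2, the log2 fold change from limma was −0.53 for miR-183-5p (adjusted p = 0.860), −0.66 for miR-182-5p (0.747) and −0.45 for miR-96-5p (0.925), with a single NC liver that is taken to vary as the MAFLD livers do. The 5 strands of the epithelial miR-200 family, which mark bile ducts in liver, summed to 206, 196 and 867 CPM in the NC livers and to 249, 369 and 437 CPM in the MAFLD livers, with the highest level in NC replicate 3. The family ran from miR-200a-3p, at 98.8 to 571 CPM, down to miR-141-3p, at 2.56 to 9.12 CPM. The sums of the other marker lists overlapped between the diets for pancreatic and endocrine cells (from 0.784 to 6.73 CPM), for lymphocytes and myeloid cells (135 to 353 CPM), hepatocytes (102570 to 176112 CPM), stellate and mesenchymal cells (12331 to 29294 CPM), erythroid cells (427 to 1202 CPM) and muscle (37.1 to 241 CPM). The endothelial miR-126a-3p did not overlap in CPM, with 4562 to 6299 CPM in NC livers and 7327 to 9646 CPM in MAFLD livers. Groups without overlap were seen for 19.4% of all tested miRNAs. Median-ratio scaling divides the CPM by 0.633 in NC replicate 1 and by 1.31 in MAFLD replicate 3. On that scale NC replicate 1 (4583 CPM before scaling) lies above MAFLD replicate 3 (7327 CPM before scaling), so the groups overlap. Among the pancreatic markers miR-375-3p was at 0.392 to 5.24 CPM, and miR-216a-5p was at 0 in all but 1 library (0.375 CPM). The most and the least abundant markers were miR-142a-5p (71.8 to 159.7 CPM) and miR-223-3p (5.73 to 24.4 CPM) of the immune list, miR-192-5p (58194 to 97879 CPM) and miR-194-5p (2218 to 7706 CPM) of the hepatocyte list, miR-143-3p (12080 to 28509 CPM) and miR-199a-5p (115 to 402 CPM) of the stellate list, miR-451a (363 to 1043 CPM) and miR-144-3p (5.12 to 23.9 CPM) of the erythroid list, and miR-1a-3p (32.6 to 238 CPM) and miR-206-3p (0 to 2.61 CPM) of the muscle list. The part of any other cell type in the level of the cluster was not tested.

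The shares of the members within the cluster do not depend on how a library is scaled. MiR-182-5p took 63.1%, 58.6% and 63.2% of the cluster reads in the NC livers and 57.2%, 62.4% and 61.5% in the MAFLD livers, and it was the major member in all 6. MiR-183-5p took 24.2%, 30.1% and 21.6% in NC livers and 27.3%, 19.9% and 21.3% in MAFLD livers. Both shares overlapped between the diets (two-sided exact permutation test, p = 0.5 for each, and 0.5 after Benjamini-Hochberg adjustment over the 3 shares).

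MiR-96-5p took 12.5%, 11.0% and 15.1% (95% Wilson interval of the last 12.5% to 18.2%) of the cluster reads in the NC livers. In the MAFLD livers it took 15.4% (13.0% to 18.3%), 17.7% (15.9% to 19.7%) and 17.1% (14.0% to 20.9%). Each MAFLD liver was thus above each NC liver, by a margin of less than 1 percentage point between NC replicate 3 and MAFLD replicate 1, and the interval of NC replicate 3 overlapped those of all 3 MAFLD livers. The mean share was 12.9% ± 2.09 (SD, n = 3) in NC livers and 16.8% ± 1.19 (SD, n = 3) in MAFLD livers, a difference of 3.88 percentage points. With 3 livers per diet a two-sided exact permutation test cannot go below p = 0.1, which is the value found here, and it became 0.3 after adjustment over the 3 shares.

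**Figure D4:**
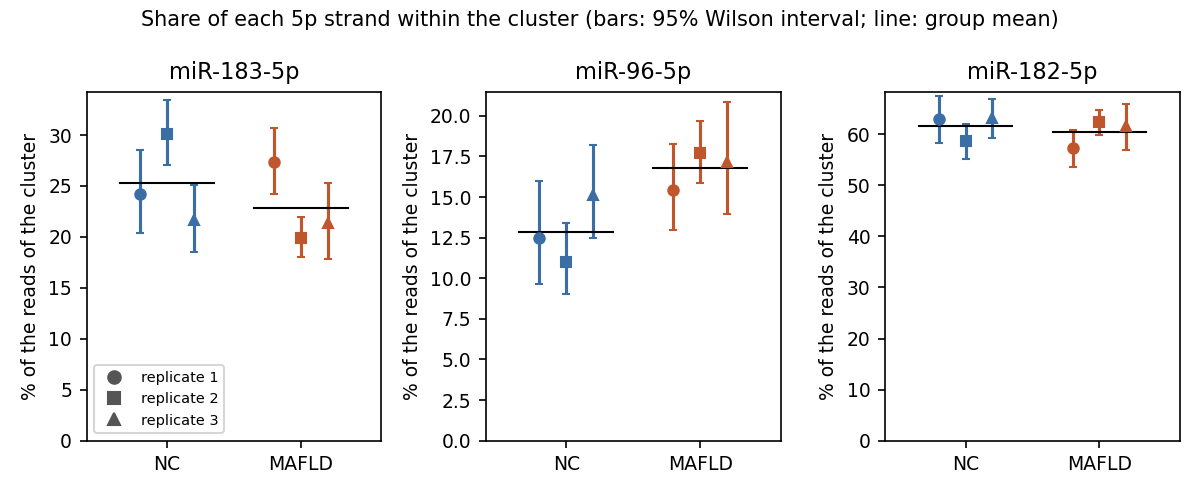
Share of the cluster reads (vertical axis, %, from 0) taken by each 5p strand in each liver; points are livers, bars are 95% Wilson intervals and lines are means of 3 livers. The share of miR-96-5p is 11.0% to 15.1% in NC livers and 15.4% to 17.7% in MAFLD livers, while the other shares overlap.

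The ratios of the strands are made from the same reads as the shares, so they restate these in part and are not a separate observation. There were 5.06, 5.31 and 4.18 reads of miR-182-5p for each read of miR-96-5p in the NC livers and 3.71, 3.52 and 3.59 in the MAFLD livers, and the groups did not overlap (two-sided exact permutation test, p = 0.1, adjusted over 3 ratios p = 0.3). The ratio of miR-96-5p to miR-183-5p, at 0.515, 0.366 and 0.700 against 0.564, 0.889 and 0.804, overlapped between the diets, as did that of miR-182-5p to miR-183-5p. A ratio whose groups do not overlap was common in these livers. It was found for 26.3% of 27730 pairs among the miRNAs that averaged 10 CPM or more, and for 1 of the 3 pairs within the cluster.

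The levels of the 5p strands were compared across the 6 livers, and 2 of the 3 pairs passed after adjustment by Pearson's r and 0 of 3 by Spearman's rho. Pearson's r of log2(CPM + 1) was 0.909 for miR-96-5p and miR-182-5p (exact permutation p = 0.0167, adjusted over 3 pairs 0.0375), with a Spearman's rho of 0.829 (exact permutation p = 0.0583, adjusted 0.0875). For miR-183-5p and miR-182-5p r was 0.900 (exact permutation p = 0.025, adjusted 0.0375) and rho was also 0.829. For miR-183-5p and miR-96-5p r was 0.721 (exact permutation p = 0.106, adjusted 0.106) and rho was 0.600 (exact permutation p = 0.242, adjusted 0.242). Without the 2 livers farthest from the median of the strand named earlier in each pair, r was 0.713, 0.724 and 0.537, and the livers left out were all from the NC group. With miR-148a-3p taken out of the total, r was 0.867, 0.897 and 0.662 in the same order, and r without 2 livers was 0.901, 0.613 and 0.511. The pair of miR-183-5p and miR-96-5p then passed as well by Pearson's r (exact permutation p = 0.0417, adjusted 0.0417). By Spearman's rho, at 0.714, it did not (exact permutation p = 0.136, adjusted 0.136). Correlated pairs were common on the CPM scale. Among all 28203 pairs of miRNAs that averaged 10 CPM or more the median r was 0.575, and 13.9%, 15.6% and 38.9% of pairs had an r at least as high as these 3. With median-ratio scaling the median r of all pairs was 0.020, the 3 pairs were at 0.904, 0.922 and 0.751, and 2.16%, 1.55% and 9.69% of pairs were at least as high. With miR-148a-3p taken out of the total the median r of 27966 pairs was 0.121. There 5.62%, 3.84% and 19.5% of pairs were at least as high as the 3 pairs of the cluster. The strands of a library share its scaling, and with 3 livers per diet no r was computed within a diet.

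Among 235 other miRNAs that averaged 10 CPM or more, the pattern most like that of the summed cluster over the 6 livers was that of miR-31-3p, with a Pearson's r of 0.981. It was followed by miR-3068-3p (0.863), miR-34c-5p (0.857), miR-146b-5p (0.849) and miR-143-3p (0.846). Its levels were 7.06, 14.0 and 15.0 CPM for the NC livers against 9.38, 11.5 and 11.1 CPM for the MAFLD livers (miR-31-3p). These 5 were picked for their likeness, which is a description, and NC replicate 1 was the lowest library for all 5.

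The other miRNAs known for SREBP and cholesterol control were listed apart from the cluster. Of 19 such miRNAs, 18 were measured and 15 tested, and 12 of the 15 had a log2 fold change above 0, against 71.3% of all tested miRNAs. Their median log2 fold change was 0.46, beside 0.43 for all miRNAs. With median-ratio scaling it was 0.20, beside 0.044 for all, and with quantile normalization 0.13, beside 0.11 for all. With miR-148a-3p, itself on the list, taken out of the total, the list median was 0.35, beside 0.16 for all. At a mean of at least 10 CPM the list median was the lower of the 2, at 0.39 beside 0.56. At an adjusted p under 0.05 from limma 0 of 15 passed (0.2% of all did), and at an unadjusted p under 0.05 there were 2 higher and 0 lower, against 13.4% of all miRNAs higher and 4.59% lower.

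These 2 were miR-122-3p and miR-27b-3p. MiR-122-3p, the minor strand of the hepatocyte miRNA miR-122, was at 152, 147 and 224 CPM in the NC group and 399.6, 321 and 271 CPM in the MAFLD group (log2 fold change 0.93, unadjusted p = 0.0225, adjusted p = 0.212 from limma). MiR-27b-3p, known to repress genes of lipid metabolism, was at 2680, 2749 and 5809 CPM in the NC group and 7451, 4590 and 5966 CPM in the MAFLD group (log2 fold change 0.75, unadjusted p = 0.0431, adjusted p = 0.257 from limma). In CPM, miR-122-3p was higher in every MAFLD liver than in every NC liver, whereas NC replicate 3 exceeded MAFLD replicate 2 for miR-27b-3p. Groups without overlap, in either direction, were seen for 19.4% of all tested miRNAs. Median-ratio scaling divides the CPM by 0.633 in NC replicate 1 and by 1.31 in MAFLD replicate 3. On that scale NC replicate 1 lies above MAFLD replicate 3 for miR-122-3p, so its groups overlap.

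MiR-33, encoded in an intron of Srebf2, the gene of SREBP2, and known to repress the cholesterol exporter Abca1, was scarce. MiR-33-5p was read 2, 1 and 3 times in the NC livers and 8, 11 and 1 times in the MAFLD livers. MiR-33-3p was read 3, 0 and 5 times in the NC livers (1.18, 0 and 3.74 CPM) and 7, 12 and 6 times in the MAFLD livers (2.63, 2.56 and 3.91 CPM). With 26 and 33 reads in all, their log2 fold changes had wide intervals, from −0.90 to 1.71 for miR-33-5p and from −0.49 to 2.24 for miR-33-3p, and no difference was detectable at this depth.

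**Figure D5:**
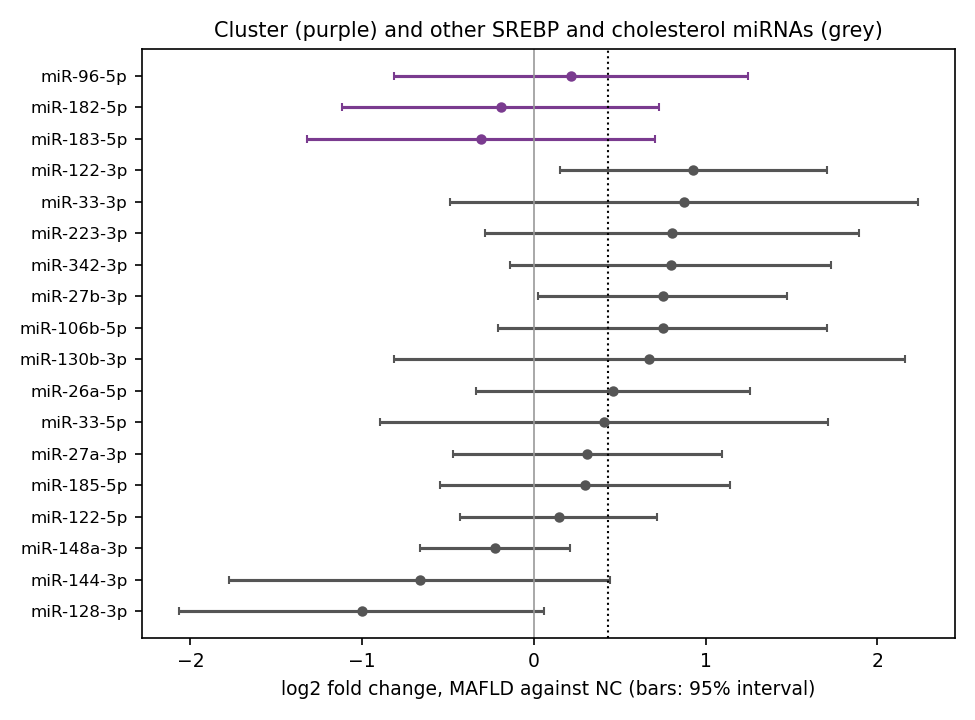
Log2 fold change, MAFLD against NC, on log2(CPM + 1) with 95% intervals from limma, for the 3 tested members of the cluster (purple) and 15 other miRNAs of SREBP and cholesterol control (grey); the dotted line is the median of all tested miRNAs, 0.43. The intervals of the cluster members all include 0, and those of miR-122-3p and miR-27b-3p lie above it.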

How the data were processed

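Small RNA libraries were made from liver RNA of 3 NC and 3 MAFLD mice, after the RNA had been treated against end groups and modifications that hinder ligation and reverse transcription. The authors deposited CPM values, reads on each mature miRNA scaled to 1000000 reads on all 1546 listed miRNAs of a library. The submitters' processing notes name FastQC, cutadapt, Bowtie, edgeR and the build GRCm38, without versions or roles. Reads were recovered as whole multiples of the smallest CPM value of each library, and 100.0% of values came within 0.02 of a whole number.

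MAFLD was set against NC by limma 3.58.1 under R 4.3.3 (trend, two-sided, Benjamini-Hochberg), using log2(CPM + 1) of the 501 miRNAs that averaged 1 CPM or more. A fold change on this scale understates the change of scarce miRNAs. Shares were compared with exact permutation tests (scipy 1.17.1). Wilson intervals and the floor of 3 reads cover counting error only, whereas the limma intervals rest on the spread between libraries. Alternatives were other pseudocounts, filters and scalings, a replicate block, left-out libraries, edgeR 4.0.16 (quasi-likelihood test, TMM) and DESeq2 1.42.0 on the recovered reads. The limma, edgeR and DESeq2 fits were tested on simulated data with planted changes larger than those of the members. All simulated libraries had the same mean profile apart from these changes. The simulation therefore does not cover changes as small as those here or the differing share of miR-148a-3p.

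The named miRNAs are the strands of the 3 hairpins, miRNAs with their seeds, the most and the least abundant marker of each cell type list, the miRNAs of SREBP and cholesterol control with an unadjusted p under 0.05, with miR-33 added after its values were seen, and the 5 most alike in pattern. The members and lists were chosen with earlier results of these data known. Nothing says that replicates with the same number share a litter, batch or day, and p-values measure the spread between these libraries.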

Additional observations from a re-analysis of the deposited data

How the results depend on the processing

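No member passed the adjusted p of 0.05 in any of the 21 alternatives, with log2 fold changes from −0.95 to 0.11 for miR-183-5p (adjusted p from 0.220 to 0.932), from −0.71 to 0.062 for miR-182-5p (0.291 to 0.966) and from −0.45 to 0.55 for miR-96-5p (0.376 to 0.925). The number of members at an unadjusted p under 0.05, which was 0, became 1 with edgeR and 1 with DESeq2. MiR-96-5p, at 0.22, reversed to −0.23 with median-ratio scaling, −0.12 with CPM without miR-148a-3p, −0.21 with quantile normalization, −0.45 without NC replicates 1 and 2, −0.23 with edgeR and −0.26 with DESeq2. In 2 settings added after the data were seen, which set NC replicate 3 alone against the MAFLD livers, it was −0.35 with median-ratio scaling and −0.36 with CPM without miR-148a-3p. When 1 library was left out, miR-96-5p ran from −0.29 (without NC replicate 1, the only one that reversed it) to 0.55 (without NC replicate 3), miR-183-5p from −0.84 (without NC replicate 1) to 0.11 (without NC replicate 2), and miR-182-5p from −0.68 (without NC replicate 1) to 0.062 (without NC replicate 2), with 0.045 without NC replicate 3. The cause was not tested.

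Without NC replicates 1 and 2 the difference in share was 1.23 percentage points for miR-183-5p, reversed from −2.46, 1.62 for miR-96-5p, down from 3.88, and −2.85 for miR-182-5p, from −1.25. With 1 library left out it was −4.71 (without MAFLD replicate 1) to −0.062 (without NC replicate 2) for miR-183-5p, 2.96 (without NC replicate 2) to 5.01 (without NC replicate 3) for miR-96-5p, and −2.77 (without NC replicate 2) to 0.32 (without MAFLD replicate 1) for miR-182-5p. The list median of the miRNAs of SREBP and cholesterol control ran from 0.13 (quantile normalization) to 0.72 (without NC replicate 3). Its lowest value with 1 library left out was 0.24 (without MAFLD replicate 3). It was not computed with edgeR or DESeq2. The 2 miRNAs of SREBP and cholesterol control at an unadjusted p under 0.05 became 1 with a pseudocount of 5, without the filter and at 10 CPM, and from 0 (without NC replicate 1, NC replicate 2 or MAFLD replicate 1) to 10 (without NC replicate 3) when 1 library was left out, with 1 without MAFLD replicate 2 or 3.

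With the replicate block the log2 fold changes were the same and the adjusted p of miR-183-5p was 0.763, and no call changed. Deviations of same-numbered livers had correlations of 0.012, −0.020 and −0.046, and the livers share only a number. The block moved the count over all miRNAs from 1 to 5 at an adjusted p under 0.05. That count was 28 with DESeq2, 2 with median-ratio scaling or without miR-148a-3p, 0 without the filter, the trend or moderation, and up to 114 (without NC replicate 3) with 1 library left out. The lone NC library left by dropping NC replicates 1 and 2 was assumed to vary as MAFLD does. The 52 to 273 reads of miR-96-5p per library limit the precision of its share.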

Other observations

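RefSeq gives a transcript start for Mirc35hg, the long non-coding RNA gene that spans the cluster, 4388 nt before the 5′ end of the Mir183 hairpin. The window from 250 bases before to 50 after this start, chr6:30174076-30174375 on the minus strand of GRCm38.p6, was searched on both strands for 3 motifs tied to sterol-responsive promoters. The sterol response element TCACNCCAC was found 0 times, and 1.24% of 32851 promoter windows of the same length hold it. CCAAT, the letters bound by NF-Y, was found 1 time, and 37.4% of windows hold at least 1. GGGCGG, a GC box, was found 4 times, in a promoter set where 35.7% hold at least 1. These are matches of letters in a short window and say nothing of binding by SREBP2.

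The coefficient of variation of the CPM over 3 livers was 57.7% in NC and 7.74% in MAFLD livers for miR-183-5p, 51.5% and 17.0% for miR-96-5p, and 47.1% and 14.5% for miR-182-5p. It was higher in NC for 71.4% of the 496 tested miRNAs with a read in each group. The gap depended on the scaling. With median-ratio scaling it was 64.2% and 17.1% for miR-183-5p, 36.8% and 33.9% for miR-96-5p, and 42.7% and 31.5% for miR-182-5p, and it was higher in NC for 64.3% of miRNAs. With miR-148a-3p taken out of the total it was 58.5% and 7.59%, 34.9% and 27.0%, and 38.2% and 24.6% for the same members. The difference in spread was not tested.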
